A study of Rattus norvegicus with 60 samples.

Results

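Transcripts of 9 rat genes of chromosome 4 that differ slightly between an NP line and its congenic NP.P line are described here: Bpgm, Pdia4, Ggct, Wdr91, Repin1, Pot1, Tnpo3, Chchd3 and Adamts9. They were taken by gene symbol from an oligonucleotide array, on which 16 of 31042 probe sets (the array's unit for a transcript) belong to them. Of the 16, 12 passed a filter on mean signal (a log2 value of 7.68 or more over all arrays), as did 18625 probe sets in all. The genes were chosen by the measured difference between the lines, so that difference is given below as a description and not as a test.

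The series compared the selected non-preferring line NP with NP.P to find candidate genes for alcohol preference. The labels do not say what NP.P carries; from knowledge of the study, it is NP with a piece of chromosome 4 from P, the line bred for alcohol preference. All were adult, handled daily before death per the labels' protocols, and 6 rats of each line gave striatum, hippocampus, amygdala, accumbens and frontal cortex, 60 arrays in all. NP.P is 1 congenic line, and the difference between lines therefore covers whatever the segment and the breeding of this line fixed.

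Arrays had median log2 values of 8.23 to 8.35, and each rat's RNA was hybridized separately, so that the number of rats limits the precision. The profiles of 7 arrays stood apart from those of their labelled region: amygdala of congenic 3 and NP 6, hippocampus of congenic 3, NP 8 and NP 11, and accumbens of NP 8 and congenic 9. Their median correlation with the other arrays of that region was 0.831 to 0.983, against 0.985 or more for the rest. The labels were kept, and values without the 7 arrays are given beside those with them. Medium spiny neurons project from striatum and accumbens, and of their 9 measured markers 9 were higher in striatum and 8 in accumbens. Of hippocampal markers, 5 of 6 were higher in hippocampus, whereas the cortical list was nearly as high in striatum (median of array means 10.13) as in frontal cortex (10.22). The amygdala list did not single out its region either, with medians of 10.25 in amygdala and 10.14 in frontal cortex. Array means of the spiny neuron list fell to 8.9 in accumbens and reached 12 in hippocampus, but 11.41 and 9.14 without the 7 arrays. Those of the hippocampal list reached 10.56 in accumbens and 10.55 in amygdala and fell to 9.07 in hippocampus. Without the 7 arrays these values were 9.09, 9.42 and 10.54. Thus some of the 7 arrays carried marker levels of another region, and the reason was not tested.

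The 9 genes have separate tasks. Bpgm makes and breaks down bisphosphoglycerate, a side product of glycolysis best known as the regulator of oxygen release in red cells. Pdia4 forms disulfide bonds in proteins folded in the endoplasmic reticulum, and Ggct is a cyclotransferase of the gamma-glutamyl cycle, which makes and turns over glutathione. Wdr91 acts in endosome maturation, Tnpo3 imports serine- and arginine-rich splicing factors into the nucleus, and Chchd3 is a subunit of MICOS, the complex that holds mitochondrial cristae in shape. Repin1 is a zinc finger protein that binds DNA near replication origins, Pot1 binds the single-stranded end of telomeres, and Adamts9 is a secreted protease that cuts proteoglycans of the extracellular matrix.

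The 250 bases before the annotated start were read for the 3 enzymes of metabolism and folding, whose windows hold 3 or more copies of CCAAT, the box bound by the factor NF-Y. Capitals mark CCAAT on either strand (ATTGG is its reverse complement). They are the RefSeq reference sequence of the GRCr8 assembly, 5′ to 3′ on the gene's strand, and not the sequence of NP or P rats.
Bpgm (chr4:64107027-64107276, plus strand): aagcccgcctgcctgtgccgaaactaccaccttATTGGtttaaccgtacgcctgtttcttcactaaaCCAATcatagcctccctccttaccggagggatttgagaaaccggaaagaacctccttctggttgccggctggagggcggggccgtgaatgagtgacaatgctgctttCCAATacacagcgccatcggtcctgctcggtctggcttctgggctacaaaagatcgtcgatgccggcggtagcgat
Pdia4 (chr4:78153192-78153441, minus strand): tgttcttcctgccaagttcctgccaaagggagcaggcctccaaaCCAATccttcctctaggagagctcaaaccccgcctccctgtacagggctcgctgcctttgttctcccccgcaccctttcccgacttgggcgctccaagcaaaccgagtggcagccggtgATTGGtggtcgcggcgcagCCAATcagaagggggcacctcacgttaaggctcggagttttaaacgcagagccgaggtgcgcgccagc
Ggct (chr4:85459547-85459796, minus strand): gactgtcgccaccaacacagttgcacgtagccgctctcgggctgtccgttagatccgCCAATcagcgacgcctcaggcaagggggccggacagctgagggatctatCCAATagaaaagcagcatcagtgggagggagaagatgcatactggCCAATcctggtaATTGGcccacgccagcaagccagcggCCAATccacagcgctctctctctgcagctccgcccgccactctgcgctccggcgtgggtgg
The Bpgm and Pdia4 windows hold 3 copies each and that of Ggct holds 5. Of 33469 such windows of all genes, 34% hold at least 1, and the share with 3 or more was not counted. Of the 9 genes, 8 were matched to the promoter table, Pot1 was not. Wdr91, Chchd3 and Adamts9 have 1 copy each, and the windows of Repin1 (2 starts) and Tnpo3 have none. No window of the matched genes holds the endoplasmic reticulum stress element (CCAAT, 9 bases of any kind, then CCACG; either strand; it contains a CCAAT), which 0.0657% of all windows hold. A match is a description of letters, not of a bound site.

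In the mean over the 5 regions of each rat, Bpgm, Pdia4 and Repin1 were higher and Wdr91 was lower in congenic rats at an adjusted p under 0.05, the values that chose them (limma, Benjamini-Hochberg over all probe sets). Thus 4 of the 12 probe sets were called, where 0.123% of all probe sets were, 3 of them higher (0.0698% of all) and 1 lower (0.0537%), a count fixed by the choice. Pdia4 lay just inside the limit (adjusted p = 0.0482) and Ggct just outside it (adjusted p = 0.0604). Ggct, Pot1, Tnpo3, Chchd3 and Adamts9 were chosen by an adjustment over the 806 chromosome 4 probe sets alone, with adjusted p of 0.00392 for Ggct, 0.00522 for Pot1, 0.00997 for Tnpo3, 0.00965 for Chchd3 and 0.0416 for Adamts9. The median size of the 12 differences was 0.18 log2 units, against 0.03 for all probe sets.

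Among the metabolic and folding enzymes, Bpgm probe set 1388544_at had animal means of 11.89 to 11.98 in NP (median 11.94) and 12.02 to 12.12 in congenic rats (median 12.08). The rats of the lines did not overlap, and the mean log2 difference was 0.14 ± 0.02 (SE, n = 6 per line), 10.4% higher on the linear scale. The other Bpgm probe set, 1383551_at, ran from 11.47 to 11.59 in NP (median 11.54) and from 11.42 to 11.73 in congenic rats (median 11.69). Here 5 of 6 congenic rats lay above every NP rat and congenic 9 lay below them all. Its difference was 0.12 ± 0.05, and 0.17 without the 7 arrays. Of blood markers, 3 of 5 genes on the array passed the filter (Ahsp and Epb42 did not) and 0 were called between the lines, with array means averaged per rat at 8.88 to 9.11 in NP and 8.71 to 9.04 in congenic rats. In tissue pieces, fewer cells of a type and less RNA per cell cannot be told apart.

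Pdia4 (1370007_at) had animal means of 9.13 to 9.31 in NP (median 9.21) and 9.35 to 9.51 in congenic rats (median 9.41). All congenic rats lay above all NP rats, by a mean of 0.21 ± 0.04 log2 units or 15.7%. Ggct (1392541_at) ran from 8.62 to 8.82 in NP (median 8.71) and from 8.41 to 8.63 in congenic rats (median 8.49). Its difference was -0.22 ± 0.04, and 5 of 6 congenic rats lay below every NP rat. A second Ggct probe set, 1398107_at, was below the filter at a mean of 6.27 and differed by -0.04.

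Among the genes of endosomes, mitochondria and nuclear transport, Wdr91 (1373746_at) ran from 8.64 to 8.77 in NP (median 8.67) and from 8.43 to 8.56 in congenic rats (median 8.49). The lines were separate, with a difference of -0.19 ± 0.03. Chchd3 (1389291_at) ran from 10.88 to 11.06 in NP (median 10.98) and from 10.71 to 10.88 in congenic rats (median 10.83). Its ranges met without overlap, and the difference was -0.17 ± 0.03, or -11.2%. Tnpo3 probe set 1382300_at ran from 8.89 to 8.95 in NP (median 8.91) and from 8.99 to 9.15 in congenic rats (median 9.05), a difference of 0.15 ± 0.03 without overlap. The other Tnpo3 probe set, 1389979_at, had the higher signal (mean 10.09) and ran from 10.00 to 10.12 in NP (median 10.08) and from 9.98 to 10.25 in congenic rats (median 10.11). Its lines overlapped, with a difference of 0.02.

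Among the genes that act on DNA, Repin1 probe set 1376401_at ran from 10.61 to 10.74 in NP (median 10.64) and from 10.77 to 10.85 in congenic rats (median 10.83). The lines did not overlap and differed by 0.17 ± 0.03. Of the 2 dim Repin1 probe sets, below the filter, 1391784_at showed the same difference of 0.17, with NP rats at 6.37 to 6.44 (median 6.41) and congenic rats at 6.54 to 6.60 (median 6.59), and 1378358_at differed by 0.01. Pot1 probe set 1386777_at ran from 8.58 to 8.76 in NP (median 8.67) and from 8.18 to 8.51 in congenic rats (median 8.41). All congenic rats were lower, by 0.28 log2 units in the mean (difference -0.28 ± 0.05). Pot1 probe set 1399134_at ran from 9.46 to 9.68 in NP (median 9.59) and from 9.32 to 9.51 in congenic rats (median 9.38), and 5 of 6 congenic rats lay below every NP rat (-0.18 ± 0.04).

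Adamts9, the protease of the matrix, had the widest spread among NP rats of the probe sets by which genes were chosen (SD 0.13). Probe set 1376481_at ran from 8.06 to 8.42 in NP (median 8.29) and from 8.42 to 8.72 in congenic rats (median 8.51), a difference of 0.24 ± 0.06 that fell to 0.18 without the 7 arrays. The ranges met at 8.42. Its second probe set, 1394518_at, was below the filter at a mean of 7.59 and differed by 0.03. In all, the animal means of the lines did not overlap in 7 of the 12 probe sets, which 0.328% of all probe sets showed, again a count that follows from the choice.

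**Figure D1:**
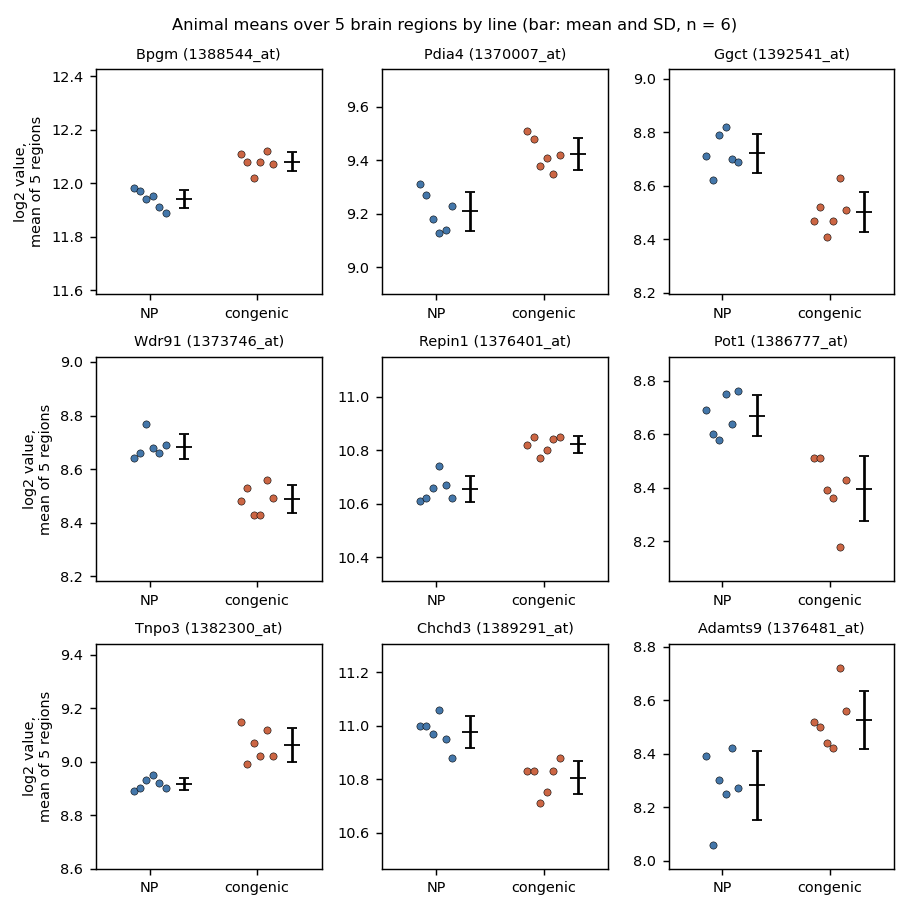
Mean log2 value over 5 regions of each of 12 rats, for the probe set by which each gene was chosen. Points are rats, the bar at the right of each group is the mean with its SD (n = 6), and every panel spans the same height. Bpgm, Pdia4, Repin1, Tnpo3 and Adamts9 sit higher in congenic rats and Ggct, Wdr91, Pot1 and Chchd3 lower.

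By region, 8 of the 9 probe sets by which the genes were chosen differed with 1 sign in all 5 regions, with and without the 7 arrays. The exception was Tnpo3, and Adamts9 in accumbens came close to 0 (0.01) without the 7 arrays. These differences make up the mean that chose the genes, so a shared sign largely follows from the choice. Its share over all probe sets was not computed. None of the 60 differences (12 probe sets in 5 regions) was called within a region (limma), where the share of all probe sets called was 0.0644% in striatum, 0.0537% in frontal cortex, 0.0322% in amygdala, and 0.00537% in accumbens and hippocampus each. An unadjusted p under 0.05 was reached by 37 of the 60, a count that follows from choosing the genes on the mean of these same differences. Of all 18625 probe sets, 366 reached it in accumbens, 735 in hippocampus, 905 in striatum, 1110 in amygdala and 1188 in frontal cortex. Without the 7 arrays 0 of the 60 were called as well. The arrays of the lines did not overlap in 6 of the 60: both Bpgm probe sets in frontal cortex (0.376% of all probe sets there), Wdr91 and Repin1 in striatum (0.258%) and both Pot1 probe sets in hippocampus (0.226%). There was none in amygdala (0.462%) or accumbens (0.199%). The count of 6 also follows in large part from the choice of genes.

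Bpgm probe set 1388544_at was higher in congenic rats by 0.09 in striatum up to 0.19 in frontal cortex, where NP rats had 11.96 to 12.02 (median 11.99) and congenic rats 12.09 to 12.22 (median 12.19). Probe set 1383551_at gave 0.21 in frontal cortex, 0.20 in hippocampus and -0.10 in accumbens, where congenic 9 had 10.28 against a congenic median of 11.65. Without the arrays that stood apart the accumbens value was 0.10. Pdia4 differences ran from 0.14 in accumbens to 0.31 in amygdala, where NP rats had 9.32 to 9.52 (median 9.42) and congenic rats 9.37 to 9.93 (median 9.76). In amygdala 5 of 6 congenic rats lay above every NP rat and congenic 10 lay within their range. The accumbens value rose to 0.26 without the 7 arrays.

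Ggct differed by -0.33 in frontal cortex and in striatum, and by -0.09 in accumbens, which became -0.32 without the 7 arrays. Its striatal values were 8.36 to 8.80 in NP (median 8.51) and 8.02 to 8.43 in congenic rats (median 8.20), with a narrow overlap. Wdr91 differed most in striatum (-0.30 ± 0.06), where NP rats had 8.49 to 8.68 (median 8.55) and congenic rats 8.16 to 8.43 (median 8.21), without overlap. Its smallest difference was -0.13 in amygdala. Chchd3 differed by -0.13 in hippocampus to -0.21 in striatum, the narrow spread of a gene whose lines overlapped in each region.

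Repin1 probe set 1376401_at had the most even differences, 0.13 in amygdala to 0.19 in striatum, where NP rats had 10.48 to 10.68 (median 10.57) and congenic rats 10.69 to 10.89 (median 10.76). In hippocampus Pot1 differed by -0.36 in probe set 1386777_at and by -0.29 in probe set 1399134_at (-0.34 and -0.25 without the 7 arrays). For the former, NP hippocampi had 8.65 to 9.01 (median 8.82) and congenic hippocampi 8.33 to 8.53 (median 8.52), with no overlap. With all arrays that probe set differed most in accumbens, by -0.43, which was -0.21 without the 7 arrays, and congenic 9 had 7.13 there. Adamts9 differed by 0.38 in amygdala and 0.35 in hippocampus, which became 0.25 and 0.30 without the 7 arrays, and by 0.24 in striatum, 0.14 in accumbens and 0.11 in frontal cortex.

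**Figure D2:**
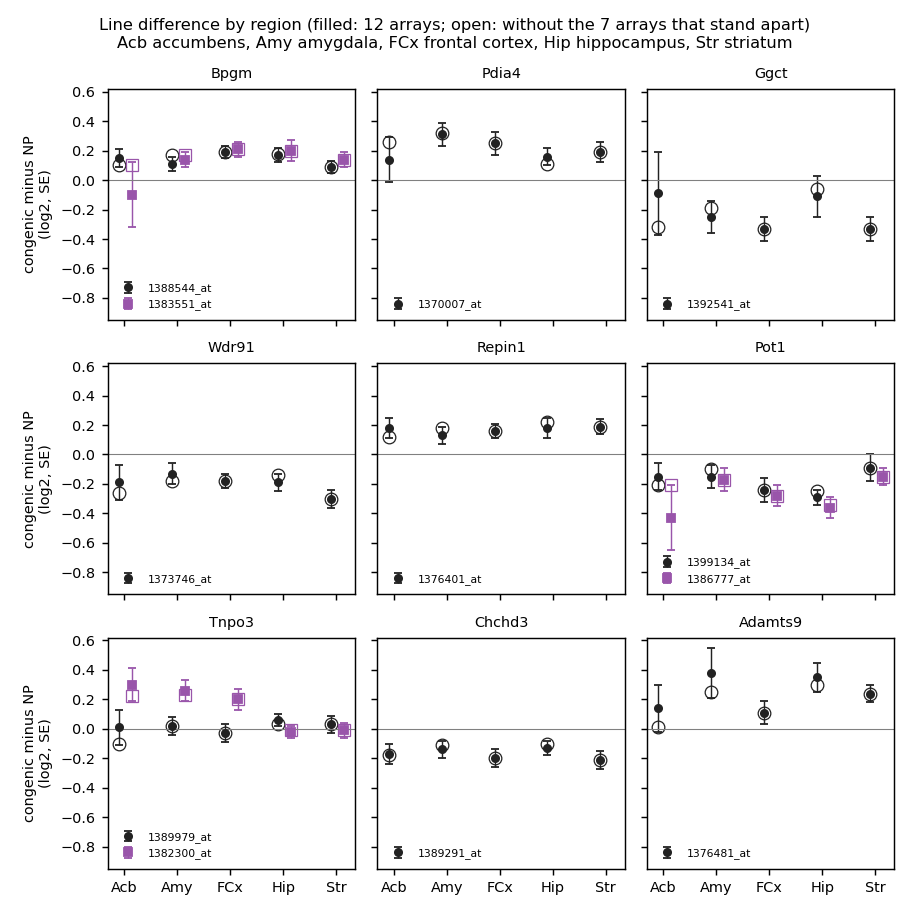
Congenic minus NP difference of log2 values (y axis, bar: SE) in each of the 5 regions (Acb accumbens, Amy amygdala, FCx frontal cortex, Hip hippocampus, Str striatum) for the 12 probe sets past the filter. Filled symbols use 12 arrays per region and open symbols leave out the 7 arrays that stood apart. The pairs of symbols separate most in accumbens, where Ggct moved from -0.09 to -0.32.

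Whether the difference between lines varied by region was tested with an interaction of line and region, which the choice of genes did not use. None of the 12 probe sets was called (limma F test, adjusted p = 0.998 each), as none of the 18625 was (0%). The smallest unadjusted p was that of Tnpo3 probe set 1382300_at (0.00871), the 1 member with a p under 0.05, where 726 of all probe sets had one. It was higher in congenic rats by 0.30 in accumbens, 0.26 in amygdala and 0.20 in frontal cortex, and differed by -0.02 in hippocampus and -0.01 in striatum. Amygdala values were 8.54 to 8.98 in NP (median 8.69) and 8.93 to 9.04 in congenic rats (median 9.00), whereas hippocampal values were 8.76 to 8.92 (median 8.81) and 8.76 to 8.85 (median 8.83). Thus the lines lay apart but for a small overlap in amygdala and coincided in hippocampus, a contrast that did not pass the correction. Without the 7 arrays 0 of the 12 were called, with 0.0107% of all probe sets called, and this probe set had an adjusted p of 0.332 (limma).

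The probe sets of a gene were set beside each other as a description over arrays, which share region and line. For Bpgm the 2 probe sets correlated at r = 0.45 over 60 arrays and at 0.85 over the 53 without those that stood apart. For Pot1 the values were 0.52 and 0.80, and the line difference had the same sign in 5 of 5 regions. For Tnpo3 they were -0.01 and -0.38, and the signs of the line difference matched in 2 of 5 regions. The Tnpo3 difference thus rests on 1 of its 2 measured probe sets. Of the pairs with a member below the filter, Ggct correlated at 0.48 (0.18 without the 7 arrays) and Adamts9 at -0.14 (-0.22). Without the 7 arrays, neither gene thus had a second probe set that closely followed the chosen one. The Repin1 pair with equal line differences correlated at 0.27 (0.40), with the same sign in 5 of 5 regions. All these correlations include levels shared by region and line. With the mean of each group of region and line removed, r over 60 arrays was 0.11 for Bpgm, -0.13 for Pot1 and 0.37 for Tnpo3. It was 0.57 for Ggct, 0.13 for Adamts9 and -0.27 for this Repin1 pair, and was not computed without the 7 arrays.

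**Figure D3:**
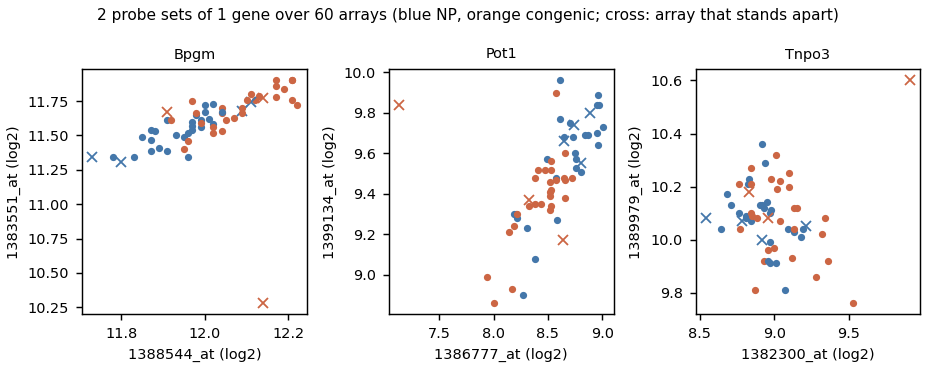
Log2 value of 1 probe set against that of the other for Bpgm, Pot1 and Tnpo3 on 60 arrays, blue for NP and orange for congenic rats. Crosses are the 7 arrays that stood apart. Bpgm and Pot1 rise together apart from the accumbens array of congenic 9, and Tnpo3 does not.

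When each rat was left out in turn, the line difference kept its sign in 11 of the 12 probe sets. The exception was Tnpo3 1389979_at (-0.01 to 0.04). In the 7 probe sets whose lines did not overlap, leaving out 1 rat could not change the sign, so the count largely follows from the choice of genes. The difference ran from 0.13 to 0.16 in Bpgm 1388544_at, from 0.10 to 0.17 in Bpgm 1383551_at (0.17 without congenic 9), from 0.19 to 0.23 in Pdia4, from -0.21 to -0.18 in Wdr91 and from 0.16 to 0.19 in Repin1. It ran from -0.25 to -0.20 in Ggct, from -0.30 to -0.24 in Pot1 1386777_at, from -0.21 to -0.16 in Pot1 1399134_at, from 0.13 to 0.16 in Tnpo3 1382300_at, from -0.19 to -0.15 in Chchd3 and from 0.20 to 0.27 in Adamts9. The adjusted p moved across the limit (limma). Wdr91 was called in 9 of 12 leave-outs, and not without congenic 1, congenic 4 or NP 12 (adjusted p up to 0.0611). Repin1 was called in 3, without congenic 3, NP 8 or congenic 9, Pdia4 in 2, without NP 5 or congenic 9, and Bpgm 1388544_at in 1, without congenic 3. Ggct was called in 2, without NP 6 or congenic 9, and Pot1 1386777_at and Bpgm 1383551_at in 1 each, without congenic 9. Tnpo3, Chchd3 and Adamts9 were called in 0 of 12.

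Without the 7 arrays the probe sets called were 7 of 12, where 0.156% of all were: both of Bpgm, and 1 each of Pdia4, Ggct, Wdr91, Repin1 and Pot1. Bpgm 1383551_at then had an adjusted p of 0.00753 against 0.911 with all arrays (limma). Chchd3 (adjusted p = 0.089), Adamts9 (0.0909) and Tnpo3 1382300_at (0.343) were not called. Leaving out a whole region shifted the differences by at most 0.05 log2 units, and Tnpo3 1382300_at spanned 0.11 without accumbens to 0.19 without hippocampus. Sizes were less even between rats 1 to 8 alone and rats 9 to 12 alone. In that order, Ggct differed by -0.27 and -0.12, Chchd3 by -0.23 and -0.06 and Pot1 1386777_at by -0.22 and -0.40. Values were 0.12 and 0.20 for Bpgm 1388544_at, 0.22 and 0.19 for Pdia4, and -0.22 and -0.15 for Wdr91. They were 0.15 and 0.20 for Repin1, 0.14 and 0.16 for Tnpo3 1382300_at, and 0.22 and 0.29 for Adamts9.

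**Figure D4:**
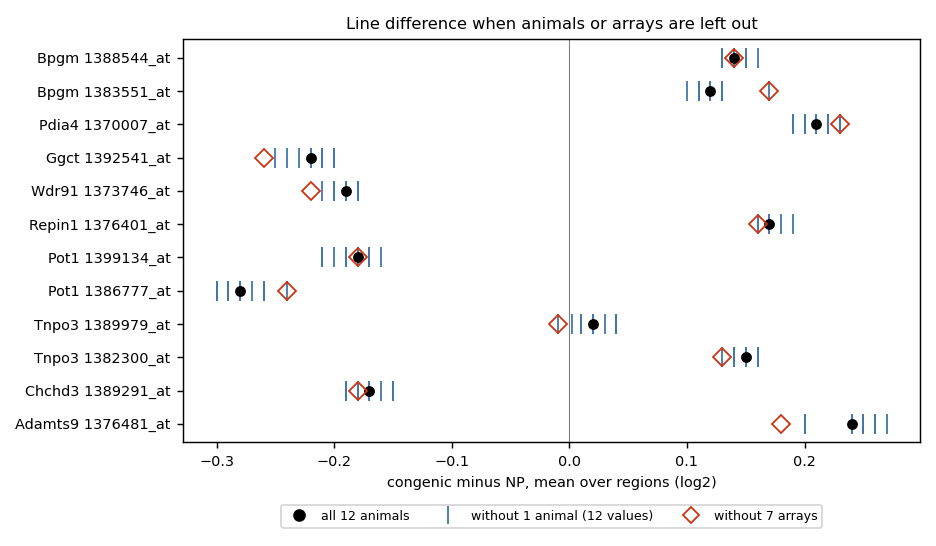
Congenic minus NP difference of log2 values, mean over regions, for the 12 probe sets past the filter. The black point uses all 12 rats, the blue ticks leave out 1 rat each and the red diamond leaves out the 7 arrays that stood apart. Only Tnpo3 1389979_at has ticks on both sides of 0.

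Levels across regions were not used to choose the genes and were tested, each region against the mean of the other 4 with the rat as a block (limma, Benjamini-Hochberg over all probe sets). Of the 60 comparisons, 36 were called, but calls were common among all probe sets too, as the shares below show. Without the 7 arrays 46 were called, but the share of all probe sets was not counted there, so nothing is read from that count. In striatum 11 of 12 probe sets were lower and 0 higher, where 43.3% of all probe sets were lower and 26.3% higher. In amygdala 6 were higher and 1 lower (29.1% and 18.6% of all), in frontal cortex 5 and 1 (35.6% and 25.7%), in hippocampus 4 and 1 (33.1% and 21.2%) and in accumbens 3 and 4 (23.5% and 38.9%). Differences between arrays' scales bear on these splits. After quantile normalization the higher share of all calls moved from 37.6% to 53.7% in accumbens, from 61% to 48.4% in amygdala and from 60.9% to 48% in hippocampus. Of the 12 probe sets, 8 were then lower and 0 higher in striatum, 4 higher and 1 lower in accumbens, where the balance turned round, 4 and 1 in amygdala, 3 and 2 in frontal cortex, and 4 and 3 in hippocampus. Of all 18625 probe sets, 6681 were then lower and 5866 higher in striatum, and 6097 higher and 5263 lower in accumbens. Higher and lower counts of all were 4048 and 4320 in amygdala, 5295 and 5665 in frontal cortex, and 4434 and 4797 in hippocampus. With each array centred on its median, accumbens had 1 higher and 5 lower, where 3890 of all probe sets were higher and 7779 lower.

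Adamts9 had the widest range across regions, from a mean of 7.96 in frontal cortex to 8.89 in amygdala. Amygdala arrays ran from 7.88 to 9.37 (median 8.87), frontal cortex from 7.78 to 8.33 (median 7.89), hippocampus from 8.09 to 8.92 (median 8.72) and striatum from 7.77 to 8.29 (median 8.10). But for NP 6, an array that stood apart, amygdala lay above every frontal cortex and striatum. The amygdala mean was 1.52-fold the mean of the other regions (0.61 ± 0.07 log2 units, adjusted p = 1.26e-09, higher in 11 of 12 rats), hippocampus was higher by 0.33 (adjusted p = 0.00012), and frontal cortex (-0.56) and striatum (-0.39) were lower in 12 of 12 rats. In the order amygdala, hippocampus, accumbens, striatum, frontal cortex, the neighbours amygdala and hippocampus (adjusted p = 0.0554) and striatum and frontal cortex (0.18) did not differ in the test (limma).

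Markers of meningeal fibroblasts, of which 8 of 8 genes passed the filter, moved partly with Adamts9: 6 were higher in amygdala (array means 8.32 to 10.47, median 9.76) and 7 lower in striatum (7.94 to 8.67, median 8.43). In hippocampus 5 of the 8 were lower (8.51 to 10.12, median 8.87), where Adamts9 was higher, and in frontal cortex 1 was higher (8.21 to 10.20, median 9.38), where Adamts9 was lower. In accumbens 5 were higher (8.24 to 9.97, median 9.63). Of astrocyte markers, 7 of 8 genes were on the array and passed the filter, and 5 were higher in amygdala (12.58 to 13.03, median 12.79), 7 higher in hippocampus (12.66 to 12.95, median 12.87) and 5 lower in striatum (12.39 to 12.52, median 12.46). In frontal cortex 3 were lower and 1 higher (12.48 to 12.65, median 12.56), and in accumbens 3 lower and 2 higher (12.46 to 12.88, median 12.57). The part of these cell types in the Adamts9 result was not tested.

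Pdia4 was lowest in striatum, where arrays ran from 8.68 to 9.24 (median 8.93), and highest in amygdala, at 9.32 to 9.93 (median 9.51). Every amygdala array was above every striatum array. The striatal difference was -0.48 ± 0.06 (1.39-fold, adjusted p = 1.86e-10, lower in 12 of 12 rats), and amygdala (0.32) and hippocampus (0.24) were higher. The order was amygdala, hippocampus, frontal cortex, accumbens, striatum, and of its neighbours hippocampus exceeded frontal cortex (adjusted p = 0.0105) and accumbens exceeded striatum (adjusted p = 5.33e-05) in limma.

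Wdr91 was the gene lowest in accumbens, where arrays ran from 7.87 to 8.67 (median 8.20), against 8.64 to 9.02 (median 8.83) in frontal cortex. The ranges overlapped through the accumbens array of congenic 9, at 8.67. Accumbens was lower by 0.47 log2 units (difference -0.47 ± 0.04, adjusted p = 8.11e-13, 11 of 12 rats) and striatum by 0.22 (-0.22 ± 0.04), while frontal cortex (0.32) and hippocampus (0.27) were higher in 12 of 12 rats each. From the top, frontal cortex, hippocampus and amygdala did not differ between neighbours (adjusted p = 0.572 and 0.0645), and amygdala over striatum (9.48e-05) and striatum over accumbens (0.00169) did in limma.

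Chchd3 was highest in hippocampus (10.90 to 11.22, median 11.05) and lowest in striatum (10.33 to 10.85, median 10.71), ranges without overlap. Hippocampus was higher by 0.20 and striatum lower (-0.30 ± 0.03, adjusted p = 1.34e-12), each in 12 of 12 rats, and accumbens was lower too (-0.12), a call that ended after quantile normalization (-0.01). Frontal cortex and accumbens differed as neighbours in the order (adjusted p = 3.23e-05), as did accumbens and striatum (0.00118, limma).

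Both Pot1 probe sets were lower in striatum by 0.43 log2 units (-0.43 each, lower in 12 of 12 rats, adjusted p = 3.32e-07 for 1386777_at and 8.17e-12 for 1399134_at). Striatal values of 1386777_at ran from 7.94 to 8.38 (median 8.20), and amygdala values from 8.47 to 8.96 (median 8.65), with no overlap. Probe set 1399134_at was also higher in frontal cortex (0.25, adjusted p = 3.28e-06), at 9.32 to 9.96 (median 9.69), a range apart from striatum that overlapped the other 3 regions. Striatum lay below the next region for both probe sets (adjusted p = 0.00105 and 1.23e-06), and other neighbours did not differ in the test (limma).

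The 2 Tnpo3 probe sets had opposite places in accumbens. Probe set 1382300_at was higher there (0.35 ± 0.05, adjusted p = 1.56e-08, 12 of 12 rats), with values of 8.97 to 9.91 (median 9.20), and lower in hippocampus (-0.21), with values of 8.76 to 8.92 (median 8.82). The ranges of these regions did not overlap. Probe set 1389979_at was lower in accumbens by 0.09 (-0.09, adjusted p = 0.0244), which turned to 0.01 after quantile normalization, and was higher in frontal cortex (0.16, 12 of 12 rats).

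Ggct was lower in striatum (-0.31 ± 0.10, adjusted p = 0.00571, 11 of 12 rats), where arrays ran from 8.02 to 8.80 (median 8.37) against 8.18 to 9.15 (median 8.81) in amygdala, overlapping ranges. No neighbours in its order of regions differed in the test. Without the 7 arrays Ggct was also lower in accumbens (-0.30, adjusted p = 0.000182), where with all arrays it was -0.12 (adjusted p = 0.28), and higher in amygdala (0.36) and frontal cortex (0.18, limma).

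Bpgm and Repin1 varied little across regions. Bpgm 1388544_at spanned 0.15 log2 units between region means, close to its line difference of 0.14, and Repin1 spanned 0.14, less than its line difference of 0.17. Only 5.26% and 3.80% of all probe sets had a smaller span, whereas that of Adamts9, 0.93, exceeded 92.1% of them. Bpgm 1388544_at was higher in frontal cortex (0.09, 12 of 12 rats) and lower in striatum (-0.10, 12 of 12 rats), and 1383551_at was lower in striatum too (-0.17). After quantile normalization the frontal cortex call of 1388544_at (0.01) and the striatum call of 1383551_at (-0.08) ended. Repin1 was higher in accumbens (0.09, adjusted p = 0.0154) and lower in striatum (-0.08, adjusted p = 0.0317, limma), which turned to 0.02 after quantile normalization. For Bpgm and Repin1 no neighbours in the order of regions differed in the test.

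**Figure D5:**
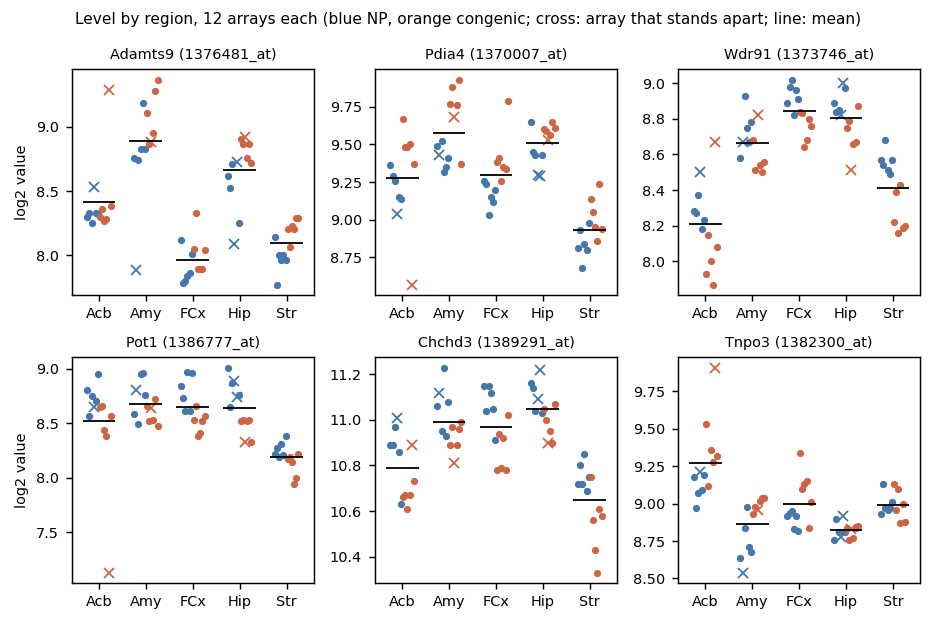
Log2 value on 12 arrays in each of 5 regions for Adamts9, Pdia4, Wdr91, Pot1, Chchd3 and Tnpo3, by the probe set by which each was chosen, with a separate y axis for each gene. Blue points are NP and orange points congenic rats, crosses mark arrays that stood apart and the line is the mean. Striatum holds the lowest mean of Pdia4, Pot1 and Chchd3, accumbens that of Wdr91 and frontal cortex that of Adamts9.

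Leaving out single rats ended 6 of the 36 region calls, each of a difference of 0.17 log2 units or less. They were Bpgm 1383551_at in accumbens (without congenic 1, 2 or 9, or NP 8 or 12), Repin1 in accumbens (NP 7) and in striatum (congenic 1 or 4, NP 6, 11 or 12), Pot1 1386777_at in amygdala (congenic 1, 3 or 4, NP 6, 8 or 11), Pot1 1399134_at in accumbens (congenic 1 or 9, NP 11 or 12) and Tnpo3 1389979_at in accumbens (congenic 1, 2, 3 or 4, NP 7). In striatum, where 11 of the 12 probe sets were lower, 9 of 9 markers of medium spiny neurons were higher (array means 11.84 to 12.71), 5 of 7 of oligodendrocytes higher (12.78 to 13.06) and 5 of 7 of astrocytes lower (12.39 to 12.52). The part of cell makeup in the region results was not tested.

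Along chromosome 4, in the gene order of the GRCr8 assembly, Pot1, Tnpo3, Chchd3, Bpgm and Wdr91 lie at places 119, 132, 146, 150 and 152 of 590 measured genes, Pdia4, Repin1 and Ggct at 191, 202 and 230, and Adamts9 at 378. Each neighbour was read by its probe set of highest signal alone, so other probe sets of these genes are not covered. The gene between Bpgm and Wdr91, Cald1 (caldesmon, which binds actin), differed by -0.04 between lines (limma, adjusted p = 0.939). Pdia4 lies between Cul1 (-0.02) and Zfp282 (0.04), and Ggct between Nod1 (0.08) and Gars1, none called. Adamts9 lies between Prickle2 (0.05, adjusted p = 0.911, limma) and Magi1, a scaffold protein of cell junctions. Magi1 was higher by 0.47 (adjusted p = 0.00101, limma) and is the 1 neighbour of the 9 genes that was called. Pot1 lies between Gpr37 and Grm8 (0.02), Tnpo3 between Irf5 (0.06) and Tspan33 (0.03), Chchd3 between Plxna4 (-0.05) and Slc35b4 (-0.01) and Repin1 between Rarres2 (-0.16) and Gimap6 (-0.01), none called. Upstream of Bpgm lies Akr1b10 (-0.05), and after Wdr91 lies Cnot4 (0.11, adjusted p = 0.7).

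The partners of the 9 genes were read from 9 lists. Of their genes, 0 were called between the lines with or without the 7 arrays, in no region and not for the interaction (limma). Calls between lines were rare among all probe sets too (0.123%, and 0.156% without the 7 arrays), so 0 says little about the partners. The lists hold 15 measured genes of glycolysis, 19 of folding in the endoplasmic reticulum, 15 of the gamma-glutamyl cycle, 18 of endosomes, 9 of origin licensing, 15 of telomeres, 21 of nuclear transport, 15 around MICOS and 10 of matrix proteases and their substrates. The smallest p was that of Apoo, a MICOS subunit, with a difference of -0.09 ± 0.02 (limma, adjusted p = 0.49). Acan, the proteoglycan aggrecan, differed by 0.09 and Gclc, which makes the precursor of glutathione, by -0.16, neither called. In each list 0 to 4 probe sets (of 12 to 34) had an unadjusted p under 0.05, as did 992 of all 18625 probe sets.

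Across regions many partners differed. A gene was counted where any of its probe sets was called, which can place it on both sides, and medians use its probe set of highest signal. For comparison, 43.3% of all probe sets were lower and 26.3% higher in striatum, and 38.9% lower and 23.5% higher in accumbens. These shares are per probe set, and counting a gene by any of its probe sets raises the gene counts against them. No share per gene was computed. In striatum 13 of 19 folding genes were lower and 4 higher (median -0.19, against -0.10 over all genes), and Hyou1, a chaperone, was higher (0.58 ± 0.09, adjusted p = 2.52e-07, limma). Erp44, which retains folding enzymes, was lower in accumbens (-0.51). Of glycolysis 13 of 15 were lower and 1 higher in accumbens (median -0.19, against -0.05), among them Pfkm (-0.65, and -0.27 without the 7 arrays), and Pfkl, the liver form of phosphofructokinase, was 2.28-fold higher in striatum (1.19 ± 0.06, adjusted p = 3.03e-21, limma).

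Of telomere genes 10 of 15 were lower and 1 higher in striatum (median -0.19), the exception being Terf2 (0.57), a shelterin subunit, and Stn1 was higher in amygdala (0.44). Around MICOS 12 of 15 were lower and 2 higher in striatum (median -0.20), led by Micos13 (-0.54), and Mtx1 was lower in accumbens (-0.42). Of nuclear transport 14 of 21 were lower and 2 higher in striatum, with a median equal to that of all genes (-0.10), and Kpnb1 and Xpo7 were lower in accumbens (-0.39 each, and -0.25 and -0.30 without the 7 arrays). Of matrix proteases and substrates 7 of 10 were lower and 1 higher in frontal cortex, where 25.7% of all probe sets were lower (median -0.22, against 0.04 over all genes), where Adamts9 was lower as well, with Fbln2, a matrix protein, at -0.53. In hippocampus 7 of these 10 were higher and 1 lower, where 33.1% of all were higher (median 0.22, against 0.05), and Adamts1 was lower in striatum (-0.49). Of endosomal genes 10 of 18 were lower and 2 higher in accumbens (median -0.09, against -0.05), where Wdr91 was lowest, with Rab5a at -0.50 and at -0.10 without the 7 arrays, and Mon1b was higher in striatum (0.70). Of the gamma-glutamyl cycle 7 of 15 were lower and 5 higher in striatum, near the share of all probe sets (median -0.04, against -0.10), and Gpx1 and Slc7a11 were among the lower (-0.55 each). Of origin licensing 6 of 9 were lower and 2 higher in striatum (median -0.14, against -0.10), and Orc4 was higher in amygdala (0.89) and Mcm4 in hippocampus (0.72).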

How the data were processed

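RNA of 12 rats was hybridized to 60 arrays. The deposited values are log2 signals of 31099 probe sets. The authors' methods of background correction and normalization are unstated in the labels. From these, 57 control probe sets were left out, and probe sets with a mean at or above the 40th percentile were tested. Genes were named from the platform table, in which 20826 probe sets have 1 symbol, 436 several and 9780 none, and 20758 were matched to the GRCr8 gene table.

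R 4.3.3 with limma 3.58.1 (empirical Bayes, 2-sided, Benjamini-Hochberg, limit 0.05) and data.table (version 1.17.8) were used, and figures used Python 3.11.15 with matplotlib 3.10.9, numpy 2.4.6 and pandas (version 2.3.3). Lines were compared on the mean of each rat's 5 values. Where arrays were left out, values were centred on each region's mean of the 2 line means before averaging, so the rats concerned rest on fewer regions. Region and interaction fits had the rat as a fixed block. Per the labels, arrays of the same number come from 1 rat, so numbers pair regions and not lines, and the consensus correlation within rats was -0.016. An array stood apart at a median correlation under 0.98 with its region or a correlation under 0.5 with the region's profile (its difference from the mean of the regions). The code was tested on simulated data.

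The 9 genes, lists and tests were chosen with earlier results of these data known. The text names every probe set of the 9 genes, the measured neighbours of each, up to 2 genes of each list (those called with the largest region differences), the gene of the smallest line p in some lists, chosen after its value was seen, and the 2 genes most correlated with each. Alternatives were other normalizations, filters and priors, blocks, and leaving out arrays, rats, regions or sets of rats.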

Additional observations from a re-analysis of the deposited data

Results flagged for a closer look

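Among 192 groups of 6 values (160 of arrays and 32 of animal means), 20 held a value far from the other 5, and chance gives such a value in about 1 in 20 groups. Most of them came from arrays that stood apart from their labelled region.

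The accumbens array of congenic 9 lay far from the other 5 of its group in 9 probe sets. It was the lowest for Bpgm 1383551_at (10.28, next 11.53), Pdia4 1370007_at (8.57, next 9.37) and Pot1 1386777_at (7.13, next 8.38). It was the highest for Ggct 1392541_at (9.88, next 8.40), Ggct 1398107_at (7.29, next 6.39), Wdr91 1373746_at (8.67, next 8.15), Pot1 1399134_at (9.84, next 9.48), Tnpo3 1389979_at (10.60, next 10.02) and Adamts9 1376481_at (9.29, next 8.38). The 2 Pot1 probe sets went opposite ways on it. Congenic 9 also had the lowest animal mean of Bpgm 1383551_at among congenic rats (11.42, next 11.67).

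Other arrays that stood apart gave the lowest congenic amygdala of Bpgm 1388544_at (congenic 3, 11.91), the highest of Repin1 1378358_at (congenic 3, 6.84), the highest NP accumbens of Adamts9 1376481_at (NP 8, 8.53) and its lowest NP amygdala (NP 6, 7.88).

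Arrays that did not stand apart gave the highest congenic frontal cortex of Pdia4 1370007_at (congenic 10, 9.79, next 9.41) and of Repin1 1378358_at (congenic 10, 7.21, next 6.91), whose animal mean of congenic 10 was also the highest (6.84, next 6.76). They also gave the lowest congenic hippocampus of Ggct 1392541_at (congenic 9, 8.00, next 8.58), the lowest NP amygdala of Pot1 1399134_at (NP 5, 9.27, next 9.55) and the lowest NP accumbens of Tnpo3 1389979_at (NP 7, 9.81, next 10.01).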

How the results depend on the processing

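Of the 12 probe sets, 4 were called between lines in the mean over regions. The count was 2 with a filter at the 60th percentile, 7 without the 7 arrays, 2 without amygdala, 1 without frontal cortex, 0 without hippocampus, 1 without striatum, 2 in rats 1 to 8 alone, 0 in rats 9 to 12 alone, 8 with the rat as a random block, and 0 to 6 with 1 rat left out (0 without congenic 1, congenic 4 or NP 12). The random block fit used a correlation within rats of -0.016, so it took the 60 arrays as nearly independent and not as 12 rats. The cause of these shifts was not tested. Other normalizations, no filter, a trended robust prior, leaving out accumbens and a fixed block of rats 1 to 8 and 9 to 12 gave 3 to 5. Within regions the count was 0, and 0 to 1 with 1 rat left out (1 without congenic 4). The interaction called 0 under every alternative run. For regions 36 comparisons were called, 25 to 46 under other settings, 31 to 42 with 1 rat left out, and 37 without the rat as a block (0 for the interaction without that block). The filter at the 60th percentile gave the 25 and the line count of 2. It left Ggct, Wdr91, Pot1 1386777_at and Adamts9 untested, so these 2 counts come from fewer probe sets. The differences of Repin1 in striatum (-0.08) and Tnpo3 1389979_at in accumbens (-0.09) turned to 0.02 and 0.01 after quantile normalization. No scaling moved the median of all probe sets in a region by over 0.1. Array signal near the filter limit of 7.68 limits the 4 dimmer probe sets, which were not tested.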

Other observations

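The genes whose values followed each of the 9 most closely are given as a description over 60 arrays, which share regions, lines and rats. For Adamts9 they were Slc17a6, the vesicular glutamate transporter of subcortical neurons (r = 0.88), and A2m, a protease inhibitor (0.87), and both were at 0.89 over the 53 arrays that did not stand apart. For Wdr91 they were Fdx2, a mitochondrial ferredoxin (0.87), and Pgs1, an enzyme of phospholipid synthesis (0.86). For Chchd3 they were the mitochondrial Stmp1 and Selenos, a selenoprotein of the endoplasmic reticulum (0.83 each), and for Pdia4 Dab1, the adaptor of reelin signalling (0.82), and Lgr4 (0.81).

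For Ggct they were Pdcd5 and Ebna1bp2 (0.85 each), which fell to 0.79 and 0.78 without the 7 arrays. For Pot1 they were Trpm7, an ion channel (0.84), and Snapin (0.83), at 0.76 and 0.78 without them. Tnpo3 followed Zfp827 (0.74) and Zxdc (0.73). Bpgm followed Magi1 (0.71) and Akr1b1 (0.68), and Repin1 followed Magi1 (0.69) and Bpgm (0.66), which are genes of chromosome 4 with a line difference of the same sign.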
